A study of Mus musculus with 6 samples.

Results

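The genes of glycogen storage and breakdown were examined in inguinal white adipose tissue (iWAT), the fat depot under the skin of the groin. The 9 members were the glycogen phosphorylases *Pygl*, *Pygm* and *Pygb*, the glycogen synthases *Gys1* and *Gys2*, the branching enzyme *Gbe1*, the UDP-glucose pyrophosphorylase *Ugp2*, and *Ppp1r3c* and *Ppp1r3b*, which encode glycogen-targeting subunits of protein phosphatase 1. The set was chosen from the contrast of the groups itself, because *Pygl* was lower in one of them, so the group differences of the members are given as a description without a test. Of the 9 symbols, 6 had a row among the 37024 rows of the count table, and all 6 passed the filter on low counts that left 9872 rows. *Pygm*, *Gbe1* and *Ugp2* had no row analysed here, so the muscle phosphorylase could not be compared with the liver and brain isoforms.

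The study asked which genes of iWAT change when the long noncoding RNA *Lexis* is deleted in adipocytes. The 3 libraries labelled AdKO came from *Lexis* fl/fl mice carrying Cre recombinase under the adiponectin promoter, which is active in adipocytes. The 3 libraries labelled AdWT came from *Lexis* fl/fl mice without Cre, so both groups carried the floxed allele. All mice were on a C57BL/6 background and had been fed a Western diet for 12 weeks, and the labels describe whole tissue and give no age for these libraries. Total counts per library ran from 14470542 to 17882713. The row of *4930412L05Rik*, which lies between *Abca1* and *4930522O17Rik* as *Lexis* does in RefSeq, held 8, 9 and 8 counts in AdWT and 21, 11 and 13 counts in AdKO. This count went against the label, since the targeted gene was not lower in AdKO (log2 fold change 0.87, SE 0.381, edgeR adjusted p = 0.851), and the row does not separate its exons. The names AdWT and AdKO below mean the libraries so labelled, and every direction rests on those labels.

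Glycogen is a branched polymer of glucose. UDP-glucose is added to it by glycogen synthase, branches are made by the branching enzyme, and glycogen phosphorylase releases glucose 1-phosphate from the chain ends. Phosphorylase kinase switches phosphorylase on and protein phosphatase 1 switches it off while switching synthase on, and adipocytes hold a small glycogen store that turns over with feeding. The phosphorylase and synthase isoforms are named after the tissues where they are most abundant: *Pygl* and *Gys2* for liver, *Pygm* and *Gys1* for muscle, and *Pygb* for brain.

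All coordinates of the genes are on NCBIM37 (mm9), the build the counts were made on. *Pygl* (ENSMUSG00000021069.10) lies on the minus strand of chromosome 12 from 71291798 to 71332475 and *Pygb* (ENSMUSG00000033059.7) on the plus strand of chromosome 2 from 150612471 to 150657494, each with 20 exons in its longest transcript. *Gys1* (ENSMUSG00000003865.8) lies on the plus strand of chromosome 7 from 52690214 to 52711989 with 16 exons, and *Gys2* (ENSMUSG00000030244.7) on the minus strand of chromosome 6 from 142371133 to 142421629 with 17 exons. *Ppp1r3c* (ENSMUSG00000067279.2; chromosome 19, minus strand, 36806227 to 36811143) and *Ppp1r3b* (ENSMUSG00000046794.8; chromosome 8, plus strand, 36438795 to 36451178) are short genes of 2 exons each.

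The upstream sequences of both phosphorylases with a row are shown because these paralogs, which encode the same enzyme activity, are compared below. The sequences are from RefSeq on GRCm38.p6, the 250 bases before each gene's start, 5′ to 3′ on the gene's strand, and capitals mark GC boxes (GGGCGG) and the nuclear receptor half-site (AGGTCA) on either strand.
*Pygl* (chr12:70227684-70227933, minus strand): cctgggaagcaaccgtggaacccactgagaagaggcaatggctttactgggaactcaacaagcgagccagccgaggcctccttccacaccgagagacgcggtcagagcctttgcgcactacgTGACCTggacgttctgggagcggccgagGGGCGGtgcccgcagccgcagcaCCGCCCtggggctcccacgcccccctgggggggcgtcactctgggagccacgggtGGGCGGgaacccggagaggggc
*Pygb* (chr2:150786546-150786795, plus strand): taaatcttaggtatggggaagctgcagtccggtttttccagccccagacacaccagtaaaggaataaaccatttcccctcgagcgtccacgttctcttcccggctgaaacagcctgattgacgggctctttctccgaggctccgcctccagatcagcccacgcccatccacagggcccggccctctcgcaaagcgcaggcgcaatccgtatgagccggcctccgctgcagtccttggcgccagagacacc
The *Pygl* sequence held 3 GC boxes, starting 100, 77 and 22 bases before the start, and 1 half-site starting 128 bases before it. The *Pygb* sequence held neither motif. Among 32851 promoters of the same length, 32.7% held a GC box and 14.0% held the half-site, searched on both strands. Both sequences were richer in G and C (69.2% in *Pygl*, 60.0% in *Pygb*) than the median promoter (52.4%), with 20 and 17 CG dinucleotides against a median of 6. *Gys1* (60.0% G and C, 2 GC boxes) and *Ppp1r3c* (64.4%, none) were the other members in the promoter table, and none of these 4 sequences held TATAAA. A match of letters is a description of the sequence, and no binding was measured here.

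*Pygl*, the liver isoform of glycogen phosphorylase, was the member whose groups separated. Its normalized level was 278, 273 and 276 CPM (each count relative to the library's total, scaled by the TMM method) in AdWT and 215, 189 and 211 CPM in AdKO. The AdWT libraries lay within a few CPM of each other, and each AdKO library lay below all of them. The mean was 275 ± 2.62 CPM (SD, n = 3) in AdWT and 205 ± 13.7 CPM (SD, n = 3) in AdKO, so the AdKO mean was 74.5% of the AdWT mean. The log2 fold change, AdKO over AdWT, was −0.42 (SE 0.0705). The counts behind these levels were 4246, 4560 and 4119 in AdWT and 3121, 2876 and 3516 in AdKO, without overlap before scaling too. Across 18 alternatives of scaling, filtering, fitting or leaving libraries out, the log2 fold change of *Pygl* stayed between −0.46 and −0.38. Both ends came from fits with a library left out, and the alternatives share libraries, so they are not independent. As background, 5.72% of all rows tested had every AdKO library below every AdWT library, and 0% passed the Benjamini-Hochberg threshold of 0.05 with edgeR. *Pygl* was chosen with its difference known, so nothing is read from these shares about it. In whole tissue, fewer cells of a type and less RNA per cell cannot be told apart.

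*Pygb*, the brain isoform of the same enzyme, had 515, 584 and 723 CPM in AdWT and 590, 474 and 461 CPM in AdKO. AdWT replicate 3 was the highest library, and AdKO replicate 1 exceeded 2 AdWT libraries, so the groups overlapped. The means were 608 ± 106 and 508 ± 71.3 CPM (SD, n = 3 each), with a log2 fold change of −0.26 (SE 0.148). Unlike that of *Pygl*, this value moved widely with the libraries and the model used. It was −0.05 without both libraries numbered 3, and −0.50 over all 6 libraries with the skeletal muscle markers as a covariate.

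**Figure D1:**
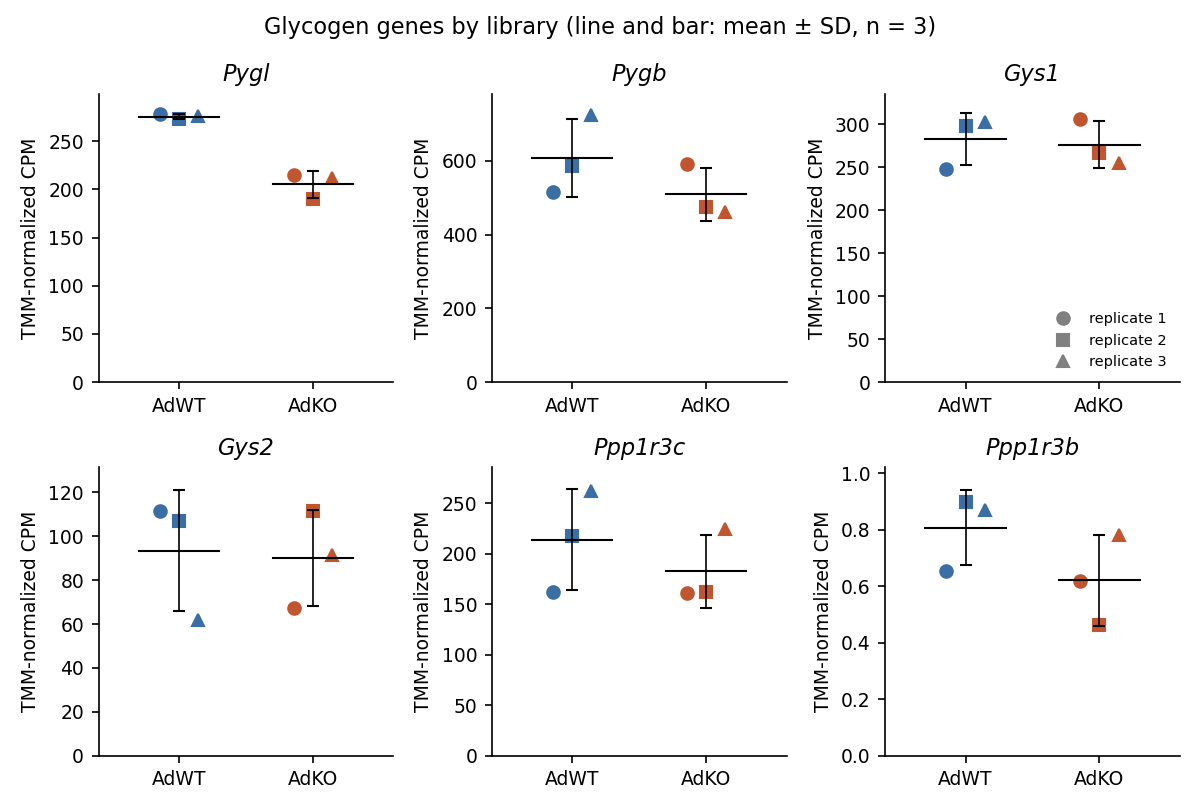
Normalized level (TMM-normalized CPM, y axis from 0) of the 6 glycogen genes with a row, in the AdWT (blue) and AdKO (orange) libraries. Symbols mark replicate numbers, which name libraries and were not taken as pairs, and lines and bars are the mean ± SD (n = 3). The groups are apart for *Pygl*, with AdWT at 273 to 278 CPM and AdKO at 189 to 215 CPM, and overlap for the other 5 genes.

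The synthases did not show the separation seen for *Pygl*. *Gys1*, the muscle isoform, had 247, 298 and 303 CPM in AdWT and 306, 267 and 255 CPM in AdKO. Its highest library was AdKO replicate 1 and its lowest AdWT replicate 1, and the group means of 283 ± 30.6 and 276 ± 27.0 CPM (SD, n = 3 each) differed by less than either SD. The log2 fold change was −0.03 (SE 0.107), and its sign turned under 4 of 18 alternatives, among them scaling by library size only.

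*Gys2*, the liver isoform of the synthase, varied most among the 5 members with high counts. Its level was 112, 107 and 61.6 CPM in AdWT and 67.5, 111 and 91.3 CPM in AdKO. AdWT replicate 3 and AdKO replicate 1 were low and AdKO replicate 2 matched the upper AdWT libraries, so low and high libraries occurred in both groups. The means were 93.5 ± 27.7 and 90.1 ± 22.0 CPM (SD, n = 3 each) and the log2 fold change was −0.05 (SE 0.255), with a sign that turned under 4 of 18 alternatives. The spread between libraries of a group, as a pooled SD of log2 CPM, was 0.425 for *Gys2* and 0.0699 for *Pygl*. Choosing *Pygl* by its group difference favours a small spread, so its value is a description only. The liver isoforms of the synthase and the phosphorylase did not move together over the libraries (Pearson r = −0.09, n = 6, a description).

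Of the phosphatase subunits that bring protein phosphatase 1 to glycogen, *Ppp1r3c* was well counted and *Ppp1r3b* was near the lower limit of counting. *Ppp1r3c* had 162, 217 and 262 CPM in AdWT and 161, 162 and 224 CPM in AdKO. Replicates 3 were the highest of each group and AdWT replicate 1 was as low as the lower AdKO libraries. The means were 214 ± 49.9 and 183 ± 36.2 CPM (SD, n = 3 each), and the log2 fold change of −0.23 (SE 0.196) was close to its SE. The row that stands for *Ppp1r3b* held 10, 15 and 13 counts in AdWT and 9, 7 and 13 in AdKO, and its other row held 1, 8 and 5 counts and 6, 2 and 6 counts. The groups overlapped in both rows of *Ppp1r3b*. The log2 fold change of the first row was −0.37 (SE 0.340), close to its SE. How reads shared by rows of a symbol were counted is not given in the sources used here, so the *Ppp1r3b* level may be understated.

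Levels of the members were compared with each other after division by the length of the longest annotated transcript, as CPM per kb. *Pygb* had the highest level of the members, with a mean of 143 ± 24.9 CPM per kb over the 6 libraries (SD). It was followed by *Pygl* (80.3 ± 13.2), *Gys1* (75.9 ± 7.08) and *Ppp1r3c* (72.9 ± 15.7), then by *Gys2* (34.5 ± 8.44) and *Ppp1r3b* (0.170 ± 0.0396). Over the 6 libraries the ranges of *Pygl* and *Gys1*, and of *Gys1* and *Ppp1r3c*, overlapped, and the first exceeded the second in 4 of 6 libraries in each pair. The values of *Pygl* and *Gys1* are given by group as a description, since *Pygl* was chosen for its lower AdKO level. In AdWT *Pygl* was at 92.9, 91.1 and 92.1 CPM per kb and *Gys1* at 67.3, 80.9 and 82.4 CPM per kb, so *Pygl* was higher in 3 of 3 libraries. In AdKO *Pygl* was at 71.7, 63.3 and 70.6 CPM per kb and *Gys1* at 83.3, 72.6 and 69.3 CPM per kb, so *Pygl* was higher in 1 of 3, AdKO replicate 3. The ranges of *Pygb* and *Pygl*, of *Ppp1r3c* and *Gys2*, and of *Gys2* and *Ppp1r3b* did not overlap.

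The order of the isoforms was compared within libraries. The brain phosphorylase exceeded the liver phosphorylase in 6 of 6 libraries, with a mean log2 ratio of *Pygl* over *Pygb* of −0.83 (SD 0.215), or 1.78-fold more *Pygb* per length. The muscle synthase exceeded the liver synthase in 6 of 6 libraries, with a mean log2 ratio of *Gys1* over *Gys2* of 1.17 (SD 0.482), or 2.25-fold more *Gys1* per length. The ratio of *Gys1* over *Gys2* gave p = 0.03125 in a two-sided exact sign-flip permutation test, the smallest p that 6 libraries allow. It was 0.03125 after adjustment over the 2 ratios. The log2 ratio of *Pygl* over *Pygb* was −0.50, −0.71 and −1.01 in AdWT and −1.07, −0.94 and −0.74 in AdKO. *Pygl* was chosen for its lower AdKO level, which lowers this ratio there, so the ratio is given as a description without a test. The liver form was thus the minor one of each pair measured, and *Pygm* was not part of the comparison.

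**Figure D2:**
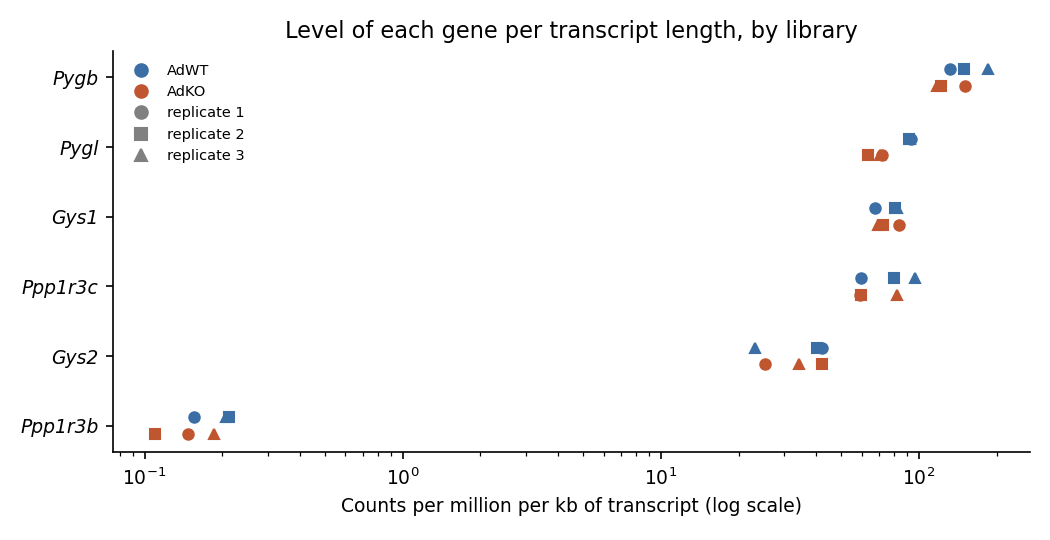
Level of each member per transcript length (CPM per kb, log scale) in the AdWT (blue) and AdKO (orange) libraries, with symbols for replicate numbers. *Pygb* lies above *Pygl* in every library, *Gys1* above *Gys2* in every library, and *Ppp1r3b* lies far below the rest at 0.110 to 0.213 CPM per kb.

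The share of *Pygl* in the per-length sum of *Pygl* and *Pygb* was 41.3%, 37.9% and 33.2% in AdWT and 32.2%, 34.3% and 37.5% in AdKO. The groups overlapped in this share although they did not in the level of *Pygl*, and AdWT replicate 3, with most *Pygb*, had a share below that of AdKO replicate 3, with least *Pygb*. The share of *Gys2* in the sum of *Gys1* and *Gys2* ran from 22.0% in AdWT replicate 3 to 38.4% in AdWT replicate 1, and from 23.4% to 36.6% in AdKO. For the targeting subunits, *Ppp1r3b* made up between 0.183% and 0.267% of the pair in every library.

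The rest of the pathway was followed in 44 further genes, listed with earlier results of these data known. Of these, 35 had a row and 28 were tested, and none passed the Benjamini-Hochberg threshold of 0.05 with edgeR, as for all rows tested (0%). Their log2 fold changes were positive for 13 genes and negative for 15, with a median of −0.04 beside 0.0071 over all rows. At an unadjusted p under 0.05 there was 1 gene higher in AdKO (2.76% of all rows tested) and 1 lower (2.98%). DESeq2 also gave no pathway gene with an adjusted p under 0.05.

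The gene with the higher value was *Phkg1*, a catalytic subunit of phosphorylase kinase, the enzyme that activates phosphorylase. Its level was 10.1, 13.8 and 12.6 CPM in AdWT and 19.1, 16.3 and 17.4 CPM in AdKO. Each AdKO library exceeded every AdWT library, which was true of 6.16% of all rows. The log2 fold change of *Phkg1* was 0.53 (SE 0.148, edgeR unadjusted p = 0.00833, adjusted p = 0.847), so it did not pass the test over all rows.

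Among the other phosphorylase kinase subunits, *Phkb*, the beta subunit, had 140, 163 and 157 CPM in AdWT and 154, 134 and 147 CPM in AdKO. *Phkg2*, the second catalytic subunit, had 14.7, 16.0 and 14.4 CPM and 14.9, 17.5 and 16.5 CPM. Both overlapped between groups (log2 fold change −0.08, SE 0.0856, and 0.11, SE 0.116).

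In the protein phosphatase 1 list, 7 of 11 genes were tested. The gene with the lower value was *Ppp1r1a*, which encodes an inhibitor of this phosphatase, with 152, 149 and 154 CPM in AdWT and 113, 150 and 108 CPM in AdKO. AdKO replicate 2 lay within the AdWT range, so the groups overlapped. The log2 fold change was −0.29 (SE 0.125, edgeR unadjusted p = 0.0496, adjusted p = 0.851), and the unadjusted p of *Ppp1r1a* was above 0.05 under 10 of 18 alternatives. The catalytic subunits *Ppp1ca* (log2 fold change −0.05, SE 0.0689) and *Ppp1cb* (0.22, SE 0.274) overlapped between groups. *Ppp1cb* was at 193, 234 and 100 CPM in AdWT and at 181, 210 and 221 CPM in AdKO, with AdWT replicate 3 alone being low.

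Of the kinases that phosphorylate glycogen synthase and the subunits of protein kinase A, 5 of 8 genes were tested and none passed an unadjusted p under 0.05. *Prkar2b*, a regulatory subunit of protein kinase A, had 823, 950 and 571 CPM in AdWT and 721, 863 and 768 CPM in AdKO, and *Gsk3b* had a log2 fold change of −0.09 (SE 0.0963). The second kinase gene, *Gsk3a*, named here after its values were seen, had 125, 124 and 124 CPM in AdWT and 133, 131 and 131 CPM in AdKO. Its groups did not overlap, but the log2 fold change was only 0.08 (SE 0.0566, edgeR adjusted p = 0.855).

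The list of other glycogen enzymes had 6 of 10 genes tested, with log2 fold changes from −0.21 to 0.20. *Pgm2* (log2 fold change −0.15, SE 0.0825), a phosphoglucomutase, an enzyme that handles the glucose 1-phosphate phosphorylase releases, and its relative *Pgm2l1* (−0.02, SE 0.103) overlapped between groups. Of the genes that make or use UDP-sugars, 6 of 10 were tested, and *Ugdh* (0.08, SE 0.0662) and *Ugcg* (0.26, SE 0.150), which draw on UDP-glucose for other products, overlapped as well.

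**Figure D3:**
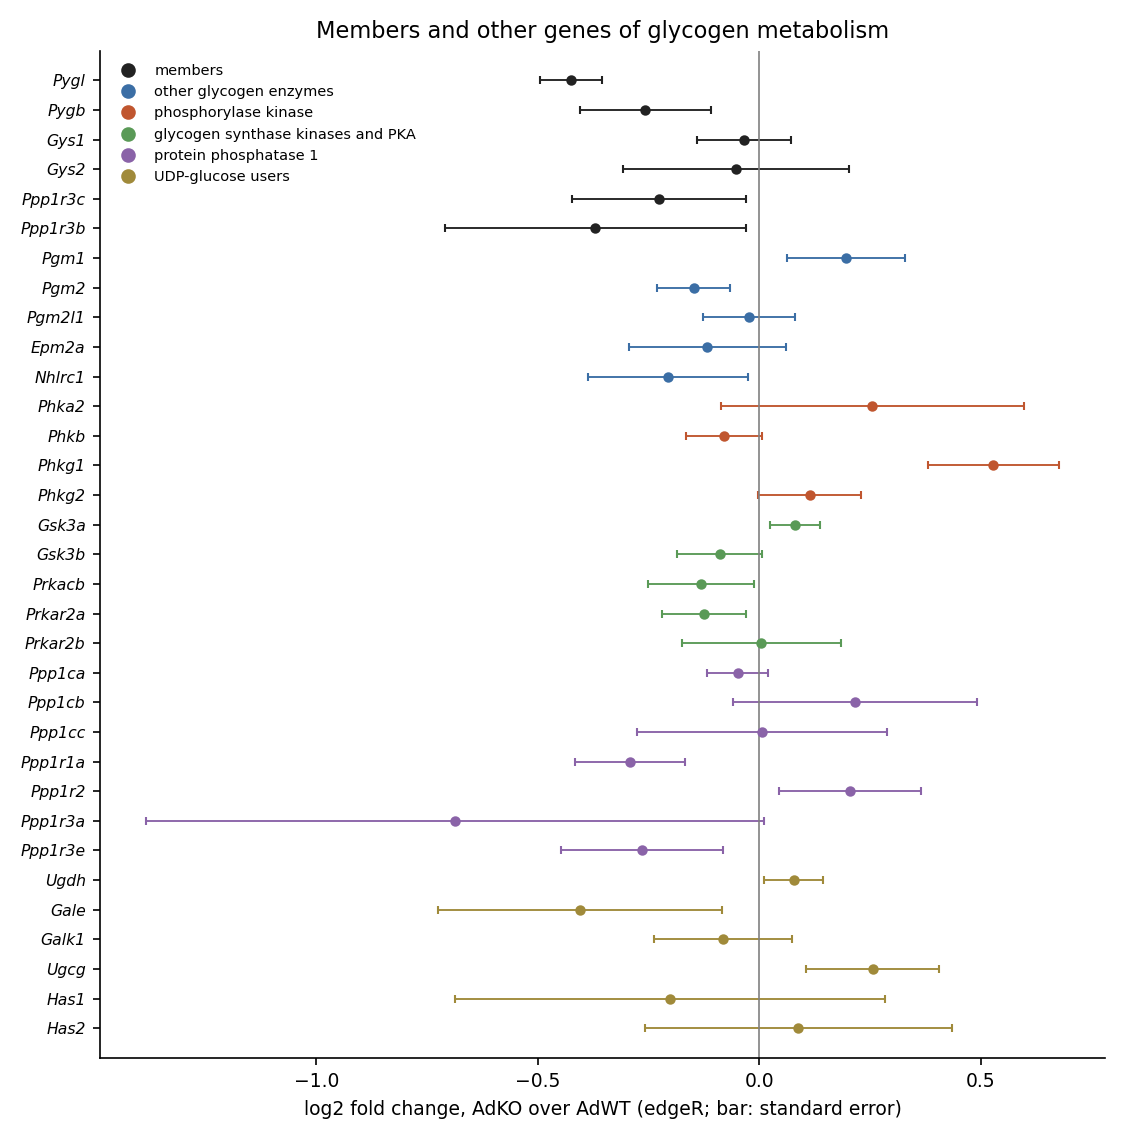
Log2 fold change, AdKO over AdWT, of the 6 members (black) and the other pathway genes tested and reported here, coloured by list, with bars for the standard error from edgeR (3 libraries a group). *Pygl* lies at −0.42 with a short bar, *Phkg1* at 0.53, and most other genes lie within 0.3 of 0.

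The 5 rows most like *Pygl* over the 6 libraries, by Pearson r of log2 CPM among 4745 rows with a mean of at least 10 CPM, were *Fstl3* (r = 0.976), *Mlycd* (0.974), *Cdc42bpg* (0.968), *Ikbkap* (0.954) and *1700020L24Rik* (0.952). *Mlycd*, which encodes malonyl-CoA decarboxylase, had 27.2, 25.8 and 25.6 CPM in AdWT and 21.5, 20.9 and 22.2 CPM in AdKO. All 5 had every AdKO library below every AdWT library, a pattern that ranking by likeness to *Pygl* favours. *Fstl3* encodes a secreted protein that binds activins. The 5 rows most like *Gys2* were *Gpalpp1* (r = 0.978), *Plin2* (0.976), *Sh3pxd2b* (0.975), *Cmpk1* (0.973) and *Kcmf1* (0.973). *Plin2*, a lipid droplet coat protein, had 1996, 1833 and 1301 CPM in AdWT and 1394, 1882 and 1823 CPM in AdKO, low in the same libraries as *Gys2*. These are descriptions over 6 libraries, and ranking many rows by r gives high values on its own.

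**Figure D4:**
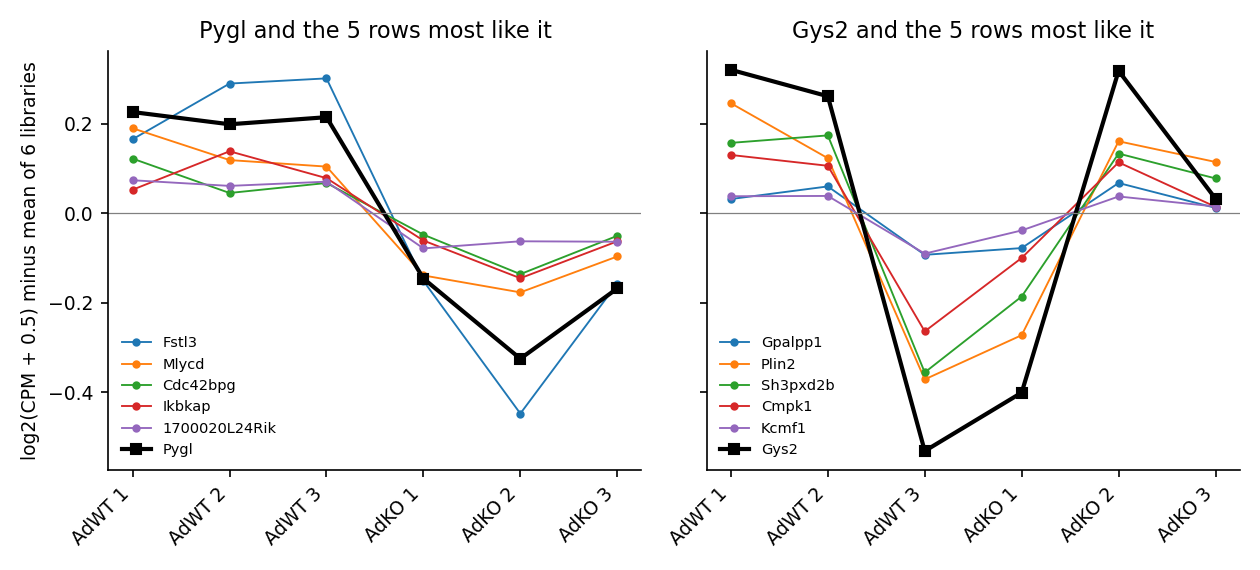
Level of *Pygl* (left, black) and *Gys2* (right, black) with the 5 rows most like each, as log2(CPM + 0.5) minus the mean of the 6 libraries. The *Pygl* rows step down from AdWT to AdKO, while the *Gys2* rows are lowest in AdWT replicate 3 and AdKO replicate 1.

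AdWT replicate 3, where *Gys2* was lowest, was the lowest library for 1 of the 6 members, *Gys2* itself, and for 10 of the 28 pathway genes tested, beside 24% of all rows tested, and this difference in shares was not tested. Chosen after its values were seen, *Ppp1r3a*, the muscle glycogen-targeting subunit, followed *Gys2* over the libraries (r = 0.91, n = 6, a description) and had between 5 and 62 counts per library.

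Markers of other cell types that could hold glycogen enzymes were summed in the same libraries. Adipocyte markers, 8 of 9 with a row, came to 46239, 50350 and 54704 CPM in AdWT and 42086, 41547 and 41413 CPM in AdKO. This sum did not overlap between groups and its AdKO mean was 82.7% of AdWT, beside 74.5% for *Pygl*. Most of the sum was *Fabp4*, *Lep* and *Adipoq*, at 33543, 10290 and 6422 CPM on average in AdWT. *Fabp4*, *Lep* and *Cd36* (3 of 8, beside 5.72% of all rows) were below in each AdKO library and the other 5 overlapped. By the edgeR fold change, AdKO was at 83.9% of AdWT for *Adipoq*, 84.0% for *Slc2a4*, 90.4% for *Lipe*, 93.1% for *Pparg* and 107% for *Plin1*. *Plin1* and *Cd36* had 5 rows each, and the row used held few counts for an adipocyte gene. The part of the adipocyte marker sum in the *Pygl* difference was not tested.

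Skeletal muscle markers, relevant to *Gys1* and *Ppp1r3a*, came to 83.2, 271 and 66.4 CPM in AdWT and 54.2, 54.3 and 53.1 CPM in AdKO. This sum too did not overlap between the groups, so the covariate fit below cannot separate muscle content from group. The part of muscle in the *Pygl* difference was not tested. Of 24 markers 20 had a row, *Myh4*, *Tnnt3*, *Cacna1s* and *Ampd1* were at 0 in every library, and 8 of the other 16 had each AdKO library below each AdWT library, beside 5.72% of all rows tested. AdWT replicate 2 was the highest for 12 of them and had the highest *Ppp1r3a* level, 3.71 CPM. With these markers as a covariate the log2 fold change of *Pygl* was −0.43, that of *Gys1* kept its sign and that of *Gys2* became 0.57.

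Hepatocyte markers, relevant to the liver isoforms *Pygl* and *Gys2*, came to 112, 157 and 737 CPM in AdWT and 117, 116 and 360 CPM in AdKO. Outside the libraries numbered 3, most of the sum was *Cyp2e1*, at 103 and 125 CPM in AdWT and 105 and 92.0 CPM in AdKO. Of 12 markers 7 had a row, and all 7 were highest in AdWT replicate 3, the library with the lowest *Gys2* level and a *Pygl* level like that of the other AdWT libraries. With the hepatocyte markers as a covariate, chosen after seeing the data, the log2 fold change was −0.42 for *Pygl* and −0.02 for *Gys2*. Without both libraries numbered 3 it was −0.45 for *Pygl* and −0.29 for *Gys2*. Epithelial markers were also high in those libraries, at 20.3 CPM in AdWT replicate 3 and 48.0 CPM in AdKO replicate 3 against at most 1.44 CPM elsewhere.

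**Figure D5:**
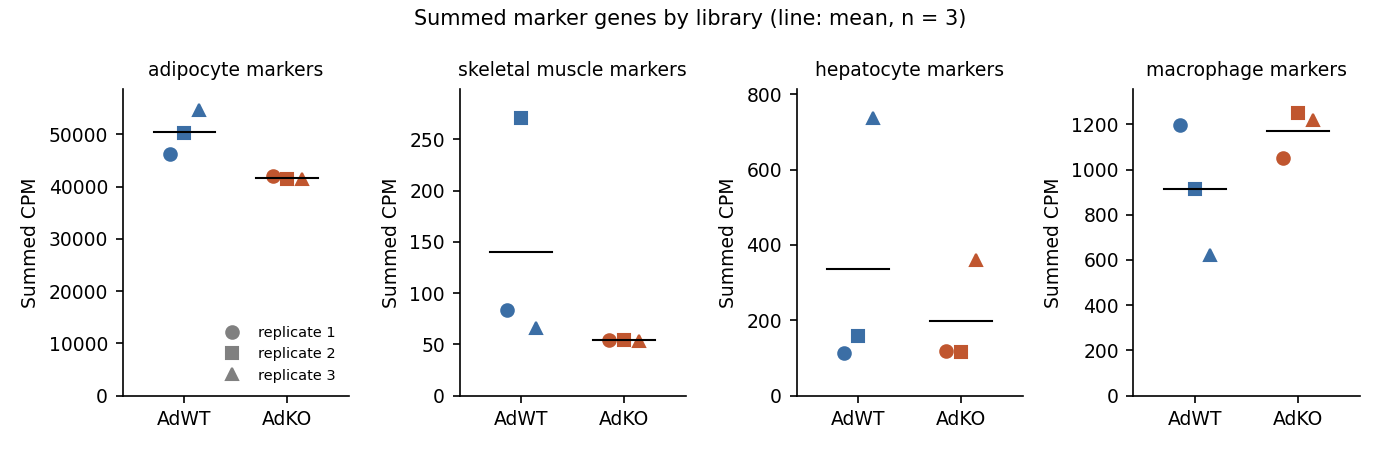
Summed CPM of adipocyte, skeletal muscle, hepatocyte and macrophage markers in the AdWT (blue) and AdKO (orange) libraries, each axis from 0, with a line at the mean (n = 3) and symbols for replicate numbers. Adipocyte sums are higher in all AdWT libraries (at least 46239 CPM) than in AdKO (at most 42086 CPM), muscle sums are also higher in all AdWT libraries (at least 66.4 CPM) than in AdKO (at most 54.3 CPM) and highest in AdWT replicate 2, and hepatocyte sums are highest in AdWT replicate 3.

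Macrophages and neutrophils also carry *Pygl*. Macrophage markers, 5 of 7 with a row and *Emr1* at 0, came to 1199, 915 and 623 CPM in AdWT and 1049, 1248 and 1220 CPM in AdKO. Neutrophil markers, 7 of 10 with a row and *Retnlg* at 0, ran from 19.5 to 36.2 CPM in AdWT and from 17.0 to 37.3 CPM in AdKO. Both sums overlapped between groups. Schwann cell markers (106 to 157 CPM in AdWT, 118 to 142 CPM in AdKO), B cell markers (0.777 to 8.38 CPM, 1.20 to 3.29 CPM) and smooth muscle markers (92.1 to 159 CPM, 153 to 192 CPM) overlapped too. The part of these cells in the levels of the glycogen genes was not tested.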

How the data were processed

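Libraries were made with a stranded RNA-Seq kit from iWAT of 3 biological replicates per group, and reads were aligned by the authors with HISAT2 (genome mm9) and compared with DESeq2. The authors deposited raw counts per gene symbol row, without normalization. The counting tool is not given in the sources used here, and 0 columns belonged to no sample. The members and all lists were chosen with earlier results of these data known. The row with the highest total stood for a symbol. A single gene of the pathway lists is counted but not reported here by name.

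Counts were fitted with edgeR 4.0.16 in R 4.3.3 (glmQLFit and glmQLFTest, filterByExpr by group, TMM, Benjamini-Hochberg adjustment over 9872 rows, threshold 0.05). SEs were the absolute log2 fold changes over √F. The common biological coefficient of variation over all rows tested was 0.196. At this value the spread between libraries limits precision more than counting error does for well counted members. *Pygl* varied less than this value (pooled SD of log2 CPM 0.0699). The edgeR p-values measured the spread between libraries together with counting error. Isoform ratios used counts per kb of the longest GENCODE vM1 transcript with 1 count added. Named genes were the members, pathway genes with an unadjusted p under 0.05, the 2 with the highest mean CPM in each list, the 5 rows most like *Pygl* and like *Gys2*, and markers of other cell types. The mean CPM, not divided by length, served only to pick names, and *Gsk3a* and *Ppp1r3a* were named outside this rule after their values were seen. The fit was tested on simulated data. Alternatives were DESeq2 1.42.0, scaling by RLE, upper quartile or library size, keeping rows with 1 count or more somewhere or 10 or more everywhere, a replicate block, summed rows, a skeletal muscle covariate, and each library left out. After seeing the data, a hepatocyte covariate, leaving out both libraries numbered 3, and DESeq2 filtered for 0.05 were added. No libraries were duplicates. Levels, ratios and plots were made in Python 3.11.15 (scipy 1.17.1, numpy 2.4.6, matplotlib 3.10.9, pandas 2.3.3).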

Additional observations from a re-analysis of the deposited data

How the results depend on the processing

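*Pygl*, *Pygb*, *Ppp1r3c* and *Ppp1r3b* kept a negative log2 fold change in every alternative run, while *Gys1* and *Gys2* turned sign under 4 of 18 each. With the skeletal muscle covariate, the log2 fold change of *Pygb* moved to −0.50 and that of *Gys2* to 0.57, and the cause was not tested. With 1 library left out, *Pygb* lay between −0.38 and −0.12, *Gys2* between −0.29 and 0.12, and *Ppp1r3c* between −0.40 and −0.06. *Ppp1r3b*, with few counts, lay between −0.58 and −0.21.

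Across all rows, 0 passed an adjusted p of 0.05 in edgeR and 566 an unadjusted one, 272 higher and 294 lower (313 and 162 with library size only). DESeq2 called 17 rows with its defaults and 27 when filtered for the threshold used. Keeping rows with at least 1 count in any library gave 1 call, as did leaving out both libraries numbered 3, and leaving out 1 library gave 0 to 1 (1 without AdKO replicate 3). The unadjusted count was 344 with the muscle covariate and 329 (without AdWT replicate 2) to 1208 (without AdWT replicate 1) with 1 library left out.

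Pathway genes at an unadjusted p under 0.05 numbered 1 with library size only, with a replicate block and with summed rows, and 1 to 3 with 1 library left out, the 1 arising without AdWT replicate 2, AdKO replicate 1 or AdKO replicate 3. In each of these settings with 1 gene it was *Phkg1*, which stayed past that threshold under every alternative run. With the muscle covariate there were 3 genes higher and 0 lower, so others entered as *Ppp1r1a* was lost, as they did without AdWT replicate 1 or AdWT replicate 3. In its 10 lost calls *Ppp1r1a* had log2 fold changes from −0.38 to −0.19. Same-numbered libraries correlated at −0.10, −0.12 and 0.35 in their deviations, too few values to decide whether the numbers pair them. The labels give no pairing, and the main fit used none. The replicate block gave 418 rows at an unadjusted p under 0.05 and *Pygl* at −0.43.

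With 1 library left out, the log2 ratio of *Pygl* over *Pygb* was −0.89 to −0.78, as a description. That of *Gys1* over *Gys2* was 1.04 to 1.27, with p = 0.0625 in the exact sign-flip permutation test, the smallest that 5 libraries allow. Ratios with *Pygm* were not run, since it had no row, and *Ppp1r3b* could not be tested with at least 10 counts in every library. Depth limits *Ppp1r3b*, with 7 to 15 counts per library.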
